A study of Rattus norvegicus with 12 samples.

Results

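In rat hearts after sorafenib, 10 genes of the cardiac fibroblast and of fibrosis, collagens not counted, were followed. They were taken by name from the deposited count tables and are Tgfb1, Ccn2, Postn, Thbs4, Cilp, Fn1, Dcn, Lum, Loxl2 and Tcf21, out of 34322 genes listed. All hearts came from male wild-type rats of the SD strain. Sorafenib-treated rats received 50 mg per kg of sorafenib, a cancer drug that inhibits RAF kinases and the receptor tyrosine kinases of vascular growth factors, once a day by gavage for 14 or 28 days. Control rats received the same volume of deionized water on the same schedule. Each of the 4 groups (sorafenib day 14, water day 14, sorafenib day 28, water day 28) held 3 libraries, made from heart RNA after removal of ribosomal RNA. The labels give a starting weight but no age, and nothing in them ties each library to a rat of its own. The p-values therefore describe how far these libraries vary, which may be technical. Over both days, 2 of the 10 genes were lower with sorafenib: Lum, a small leucine-rich proteoglycan, and Loxl2, a collagen-crosslinking oxidase. None was higher, and of all genes tested 2.41% were lower and 2% higher. The Loxl2 call lay close to the threshold and was lost in 10 of 12 fits that left out 1 library, that of Lum in 3 of 12.

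Fibroblasts build and renew the matrix between the heart's muscle cells. In a stressed heart, transforming growth factor beta is released from latent stores, binds its receptors and acts through SMAD proteins, and fibroblasts then make more collagen, fibronectin and matricellular proteins. Tgfb1 encodes the ligand itself, and Ccn2 (connective tissue growth factor) is a classical target of both SMAD and YAP-TEAD signalling. Postn (periostin), Thbs4 (thrombospondin 4) and Cilp (cartilage intermediate layer protein) encode secreted matrix-associated proteins of the injured or loaded heart. Fn1 encodes fibronectin. Dcn (decorin) and Lum (lumican) are small leucine-rich proteoglycans that bind collagen fibrils, and Loxl2 is a lysyl oxidase-like enzyme that crosslinks collagen. Tcf21 is a transcription factor of epicardial and resident cardiac fibroblasts.

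Promoter sequence was available for 7 of the 10 genes in a RefSeq table of the assembly GRCr8, as windows of 250 bases before and 50 after the start site. The 2 shown here belong to Lum, which was lower with sorafenib over both days, and to Ccn2, which was higher at day 28 than at day 14 in water-treated hearts. They lie at chr7:34245456-34245755 on the plus strand and at chr1:22624565-22624864 on the minus strand of GRCr8. Capitals mark CAGAC, the core of a SMAD-type element, and GGAATG, the core of a TEAD-type element, read on either strand. GTCTG is thus CAGAC on the opposite strand.
Lum: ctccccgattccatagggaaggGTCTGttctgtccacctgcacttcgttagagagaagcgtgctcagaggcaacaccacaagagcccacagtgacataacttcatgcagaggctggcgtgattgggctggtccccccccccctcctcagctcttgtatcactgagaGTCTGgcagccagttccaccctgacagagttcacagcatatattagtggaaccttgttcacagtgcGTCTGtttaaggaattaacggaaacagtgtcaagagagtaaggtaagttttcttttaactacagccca
Ccn2: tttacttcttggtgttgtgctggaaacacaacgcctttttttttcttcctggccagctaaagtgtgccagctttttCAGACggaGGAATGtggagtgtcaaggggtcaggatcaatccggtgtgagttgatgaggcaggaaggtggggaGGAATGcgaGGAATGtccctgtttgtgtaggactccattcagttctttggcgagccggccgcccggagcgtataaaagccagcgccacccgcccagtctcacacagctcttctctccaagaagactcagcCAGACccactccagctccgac
The Lum window held 3 SMAD-type matches, at -228, -84 and -18 from the start site, and no TEAD-type match. The Ccn2 window held SMAD-type matches at -174 and at 30 and TEAD-type matches at -166, -101 and -92. Of all 33469 promoters in the table, 50.061% held at least 1 SMAD-type match and 4.165% at least 3. TEAD-type matches were found in 14.189% of them, and 0.096% held 3 or more. Across the 7 windows, 6 held a SMAD-type match (all except that of Tgfb1), 2 held a TEAD-type match (Ccn2 and Thbs4), and 0 held an AP-1-type match (TGAGTCA or TGACTCA, in 4.631% of all promoters). The window of Tgfb1, which was likewise higher at day 28 than at day 14 in water-treated hearts, held 0 matches and is not shown. All matches describe the letters only.

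The libraries of day 14 held 13746366 to 18534816 counts each. Those of day 28 ranged over 16785038 to 26403196 counts, except sorafenib replicate 3, which held 1036483, so that 1 count there equals 0.965 CPM (a count scaled to library size). A second library, sorafenib day 14 replicate 5, also stood apart in the genes described here. The 14 other genes of activated fibroblasts that were followed lay on average 0.71 above the water mean of their day in sorafenib day 14 replicate 5, and 0.77 above it in sorafenib day 28 replicate 3, on the log2 scale. In the other 4 sorafenib libraries that average was -0.40 to -0.20, and in the 6 water libraries -0.08 to 0.11. The same 2 libraries had the lowest summed level of 10 cardiomyocyte markers, 99280 and 111100 CPM, against 126100 to 216400 CPM in the other 10. Cardiomyocyte markers were thus abundant in every library, and what part their level has in the results was not tested.

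Levels of the genes were compared with each other per length, as TPM (counts per base of exon, scaled to the library). In the 6 water libraries Dcn was the most abundant at 513 ± 116 TPM (SD), and its lowest library, at 375 TPM, lay above every water library of the other 9 genes. Lum followed at 100.5 ± 26.04 TPM and Ccn2 at 82.3 ± 30.9 TPM, and their ranges overlapped (72.1 to 140 TPM for Lum, 44.9 to 129 TPM for Ccn2). Loxl2 at 44.0 ± 10.2 TPM, Fn1 at 42.1 ± 7.78 TPM and Tgfb1 at 37.3 ± 8.66 TPM did not differ beyond their spread. Tcf21 averaged 19.3 ± 6.43 TPM, Postn 14.6 ± 9.13 TPM and Cilp 9.85 ± 3.97 TPM, again with overlapping ranges. Thbs4 was lowest at 1.91 ± 1.89 TPM. The spread between water libraries was unequal: the highest exceeded the lowest by 1.52-fold for Fn1, 4.4-fold for Postn and 11.1-fold for Thbs4.

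**Figure D1:**
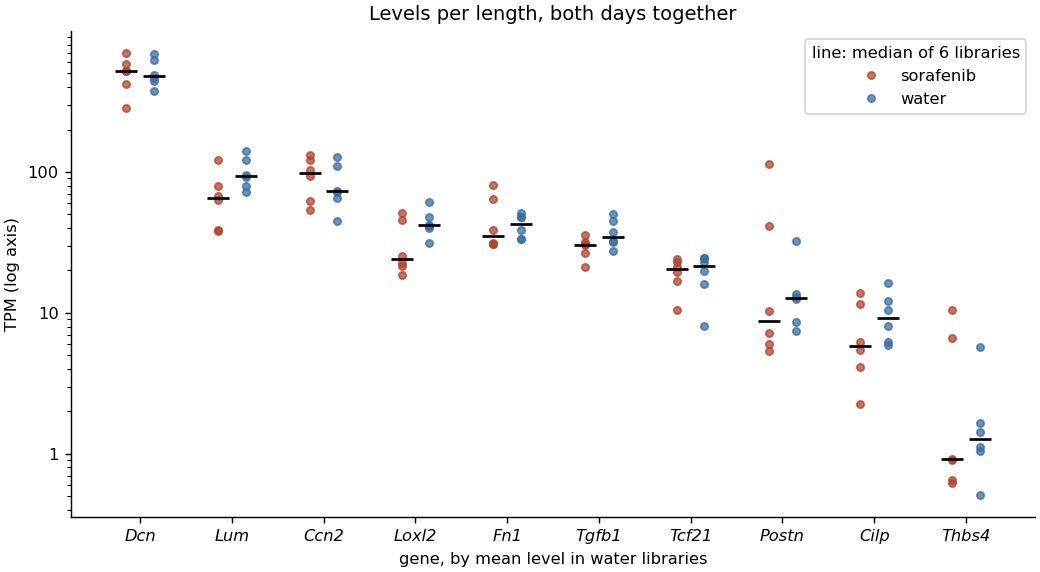
Level per length (TPM, log axis) of each gene in the 6 sorafenib libraries (red, left) and the 6 water libraries (blue, right), both days together, with a line at the median of 6. Genes run from Dcn, at 513 TPM on average in water, to Thbs4, at 1.91 TPM.

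Whether sorafenib moved these genes was asked at each day and over both days, with edgeR's quasi-likelihood test and Benjamini-Hochberg adjusted p over all genes tested. All 10 genes passed the filter on low counts in every comparison. At day 14, 0 of the 10 passed an adjusted p of 0.05, as did 0% of all 17406 genes tested. Unadjusted p was under 0.05 for 2 of them (Lum and Loxl2, both lower), against 14% of all genes, and 6.93% in that direction. At day 28, 0 of the 10 passed, again with 0% of 17021 genes, and unadjusted p was under 0.05 for 3 (Tgfb1, Lum and Loxl2, all lower), against 14.9% of all genes, and 7.83% in that direction. DESeq2, as an alternative, called 0 of the 10 at day 14 and 1 at day 28, against 2.52% and 1.64% of all genes, and gave no adjusted p for Postn at day 28. The median log2 fold change of the 10, sorafenib over water, was 0.05 at day 14 (0.001 over all genes) and -0.52 at day 28 (-0.0026 over all genes). The log2 fold change was below 0 for 5 of the 10 at day 14 (49.8% of all genes) and for 9 at day 28 (50.2%). Averaged over both days with equal weight, 2 of the 10 were lower and 0 higher, against 2.41% and 2% of 18174 genes (4.41% either way). In that average 6 of the 10 lay below 0 (50.8% of all genes), the unadjusted p was under 0.05 for 4 (24.3%), and no member was below water in every library at both days (3.36%).
No gene passed the test of a different effect at the 2 days, for which the adjusted p of all 10 was 0.999 and 0% of all genes passed (4.42% had an unadjusted p under 0.05; DESeq2 called 9 genes, 0.0495%). The average and each day's comparison share their libraries and are not independent of each other.

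**Figure D2:**
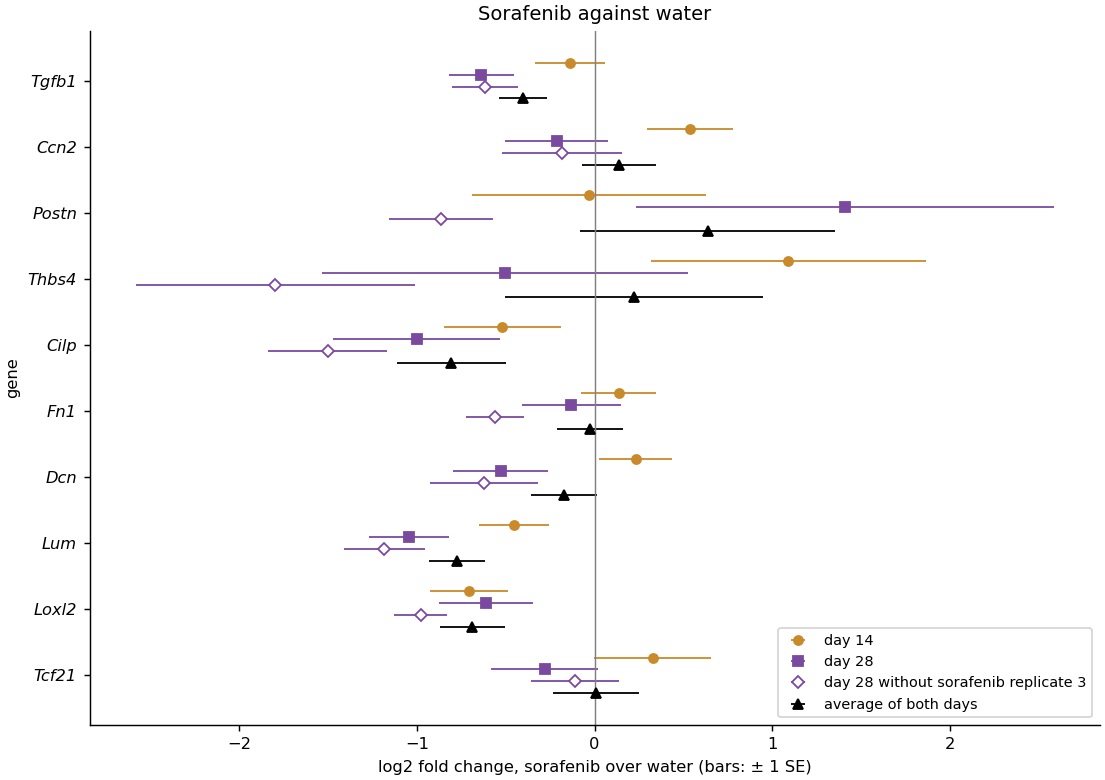
Log2 fold change of each gene, sorafenib over water, with bars of 1 SE, at day 14, at day 28, at day 28 without the shallow sorafenib replicate 3, and averaged over both days. Lum, Loxl2, Tgfb1 and Cilp lie below 0 in all 4 estimates, while Postn moves to the other side of 0 at day 28 when replicate 3 is left out.

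Lum was the member with the smallest p in the average. Its level was 58.9, 35.8 and 47.3 CPM in the sorafenib libraries of day 14, against 65.7, 75.4 and 54.3 CPM in the water libraries. By day 28 the values were 26.3, 37.6 and 28.2 CPM with sorafenib, against 48.9, 57.1 and 82.2 CPM with water. The groups overlapped at day 14 through sorafenib replicate 5 and did not overlap at day 28. Tgfb1 was the only other member below water without overlap in CPM at that day, so 2 of the 10 were, against 11.9% of all genes. At day 14 none was (10.6%). The fitted log2 fold change was -0.45 ± 0.20 (SE) at day 14 and -1.04 ± 0.23 at day 28, with adjusted p of 0.346 and 0.147. Averaged over both days Lum fell to 0.585 of the water level (log2 fold change -0.77 ± 0.16, adjusted p = 0.0231). In bulk tissue, fewer cells of a type and less RNA per cell cannot be told apart. The call was lost when sorafenib day 28 replicate 2 (adjusted p = 0.0828), water day 14 replicate 3 (0.0719) or sorafenib day 14 replicate 6 (0.0538) was left out. At day 28 alone, DESeq2 called Lum (adjusted p = 0.0114, with 0.77% of all genes called lower). In the average DESeq2 called the same 2 members as edgeR, Lum and Loxl2, with 10.1% of all genes, and gave no adjusted p for Postn there or between the days in water.

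Loxl2 had 66.2, 38.2 and 44.9 CPM in sorafenib hearts of day 14, against 65.7, 98.02 and 81.03 CPM in water hearts. At day 28 Loxl2 had 43.0, 85.2 and 41.1 CPM with sorafenib and 80.0, 89.4 and 82.5 CPM with water. At each day a pair of sorafenib libraries lay below all water libraries, and the remaining one (replicate 5 at day 14, the shallow replicate 3 at day 28) lay among them. Loxl2 fell to 0.621 of the water level over both days (log2 fold change -0.69 ± 0.18, adjusted p = 0.0488), close to the threshold. Without either of those 2 high libraries the decrease was larger and still passed: -0.80 without sorafenib day 14 replicate 5 (adjusted p = 0.0339) and -0.83 without sorafenib day 28 replicate 3 (adjusted p = 0.0209). Leaving out any one of the other 10 libraries ended the call, with adjusted p of 0.0552 to 0.149.

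Dcn, the neighbour of Lum on chromosome 7 (mRatBN7.2 chr7:32281252-32321291 and chr7:32358990-32365794, both on the plus strand), did not pass. It had 359, 317 and 369 CPM in sorafenib libraries of day 14, against 389, 280 and 226 CPM in water libraries. At day 28 the values were 205, 311 and 333 CPM with sorafenib, against 333, 337 and 587 CPM with water. The groups overlapped at both days. The log2 fold change was 0.23 ± 0.21 at day 14 and -0.53 ± 0.27 at day 28, and the difference between the days had an unadjusted p of 0.049 (2.16% of all genes had one under 0.05 in that direction). Over both days it was -0.17 (95% interval -0.53 to 0.19).

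Tgfb1, the ligand gene (chr1:81196532-81212848, plus strand), was measured at 14.8, 10.2 and 15.4 CPM with sorafenib at day 14, against 16.8, 14.7 and 13.1 CPM with water. After 28 days it stood at 15.3, 15.03 and 19.1 CPM with sorafenib, against 28.8, 26.8 and 24.0 CPM with water. At that day all 3 sorafenib libraries, the shallow one included, lay below all 3 water libraries in CPM. In TPM the shallow replicate 3, with 18 counts, was at 31.94 TPM and water replicate 4 at 31.87 TPM, so the groups overlapped. Its log2 fold change at day 28 was -0.64 ± 0.18, or 0.643 of the water level, with an adjusted p of 0.212. The average was -0.40 ± 0.13 (adjusted p = 0.0904), so the decrease did not pass the test at either level.
Ccn2 (chr1:20802199-20805315, minus strand) had 79.9, 48.1 and 75.5 CPM with sorafenib at day 14 and 52.1, 32.6 and 56.5 CPM with water. Its day 28 values were 121, 77.7 and 53.9 CPM with sorafenib, against 100.4, 124 and 78.5 CPM with water. The groups overlapped at both days, and the log2 fold change was 0.54 ± 0.24 at day 14 and -0.21 ± 0.29 at day 28 (adjusted p of 0.359 and 0.749).

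**Figure D3:**
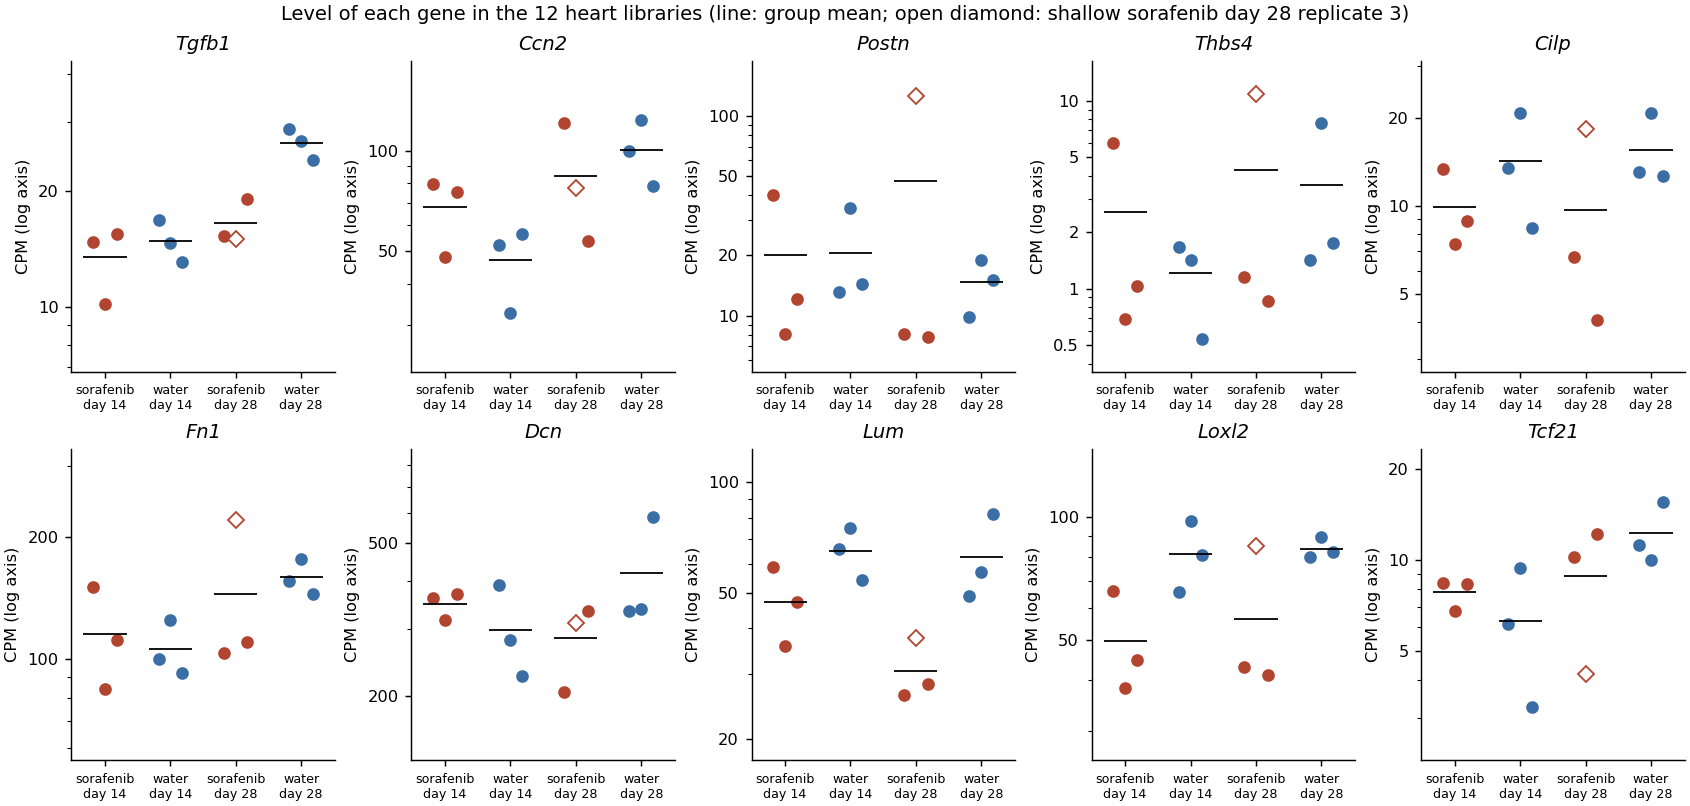
TMM-normalized CPM (log axis) of the 10 genes in each library, grouped from left to right as sorafenib day 14, water day 14, sorafenib day 28 and water day 28, with a line at each group mean and an open diamond for the shallow sorafenib day 28 replicate 3. For Postn that library reads 125 CPM, while the other sorafenib libraries of day 28 read 8.05 and 7.84 CPM.

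The levels of the genes for secreted matrix proteins varied through single libraries. Postn, periostin, had 39.9, 8.1 and 12.04 CPM with sorafenib at day 14, against 13.2, 34.4 and 14.4 CPM with water. At day 28 it had 8.05, 125 and 7.84 CPM with sorafenib, against 9.86, 19.1 and 15.1 CPM with water. The high value of day 28 is the shallow replicate 3, where Postn had 150 counts (106 to 147 CPM, exact 95% binomial interval, counting error only), 15.8 times the mean of the other sorafenib libraries of that day. With it the log2 fold change at day 28 was 1.41 ± 1.18 (adjusted p = 0.594). Without it the value was -0.86 ± 0.29 (adjusted p = 0.28), so the direction rests on 1 library. Over both days it was 0.64 ± 0.72 with that library and -0.43 ± 0.41 without it, and neither passed.

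Thbs4, thrombospondin 4, was high in single libraries too and rested on few counts. It had 5.998, 0.689 and 1.03 CPM with sorafenib at day 14, against 1.67, 1.42 and 0.542 CPM with water, and sorafenib replicate 5 alone was high. At day 28 Thbs4 had 1.15, 10.9 and 0.863 CPM with sorafenib, from 20, 13 and 13 counts, against 1.42, 7.58 and 1.75 CPM with water. One library in each group of day 28 was thus high. The log2 fold change at day 28 was -0.50 ± 1.03, and without sorafenib replicate 3 it was -1.80 ± 0.79 (adjusted p of 0.841 and 0.374). At day 14 it was 1.09 ± 0.77, and -0.50 without sorafenib replicate 5.

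Cilp (chr8:65777281-65792251, plus strand) was at 13.4, 7.41 and 8.90 CPM with sorafenib at day 14, against 13.5, 20.8 and 8.41 CPM with water. At day 28 the sorafenib libraries had 6.67, 18.4 and 4.05 CPM, against 13, 20.8 and 12.6 CPM in the water libraries. Outside the shallow replicate 3, the day 28 sorafenib values lay below all water values. The average log2 fold change was -0.81 ± 0.31 (adjusted p = 0.131), and without that replicate -0.996 ± 0.263 (adjusted p = 0.0549).
Fn1 (chr9:73196044-73264695, minus strand) had 150, 84.3 and 111 CPM with sorafenib at day 14, against 99.8, 125 and 92.2 CPM with water. Fn1 at day 28 had 103, 220 and 110 CPM with sorafenib, against 156, 176 and 144 CPM with water. The groups overlapped at both days, with the highest value in sorafenib replicate 5 of day 14 and replicate 3 of day 28. Its average log2 fold change of -0.03 ± 0.19 took either sign among the alternatives.

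Tcf21, the fibroblast transcription factor (chr1:22701353-22704212, plus strand), showed no difference past the test. It had 8.40, 6.78 and 8.35 CPM with sorafenib at day 14 and 6.15, 9.41 and 3.25 CPM with water. At day 28 it had 10.2, 4.18 and 12.2 CPM with sorafenib, against 11.2, 10.04 and 15.6 CPM with water, the 4.18 CPM resting on 5 counts (1.36 to 9.75 CPM, exact 95% binomial interval). Groups overlapped at both days. The average log2 fold change was 0.01 with a 95% interval of -0.46 to 0.48.

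Sorafenib replicates 2 and 4 of day 28 had similar means over these genes, though not in each gene, with Ccn2 at 121 CPM in replicate 2 and 53.9 CPM in replicate 4. In both, 9 of the 10 lay below the water mean of the day. The mean deviation of the 10 genes was -0.76 in replicate 2 and -0.85 in replicate 4, against -0.23 to 0.23 in the water libraries. The median over all genes was -0.0171 and 0.0081. The shift was neither particular to the 10 nor shared by every related list. Other fibroblast markers averaged -0.67 and -0.45, fibrillar collagens -0.64 and -0.88, and macrophage markers -1.21 and -0.93. Smaller averages were those of activated fibroblast genes (-0.20 and -0.33), small leucine-rich proteoglycans (-0.22 and -0.05), the TGF-beta apparatus (-0.19 and -0.09) and endothelial markers (-0.01 and -0.19). Mesothelial and epicardial markers went the other way, at 0.92 and 1.46. In the shallow replicate 3 the mean was 0.21, and 5 of the 10 lay below. Leaving it out, 7 of the 10 (Tgfb1, Postn, Thbs4, Cilp, Fn1, Lum and Loxl2) had both remaining sorafenib libraries below all 3 water libraries, against 16.9% of 17695 genes. All 10 had a log2 fold change below 0 (50.4% of all genes), with a median of -0.74 against -0.0041. The unadjusted p was under 0.05 and the direction lower for 7, against 7.09% of all genes. None passed the adjusted threshold in that fit, where 0% of all genes did. The smallest adjusted p among the 10 was 0.111, for Loxl2 (log2 fold change -0.98 ± 0.15). At day 14 the 3 sorafenib libraries did not share a direction, with mean deviations of 0.52, -0.50 and -0.08 in replicates 5, 6 and 7, against -0.34 to 0.28 in water libraries.

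**Figure D4:**
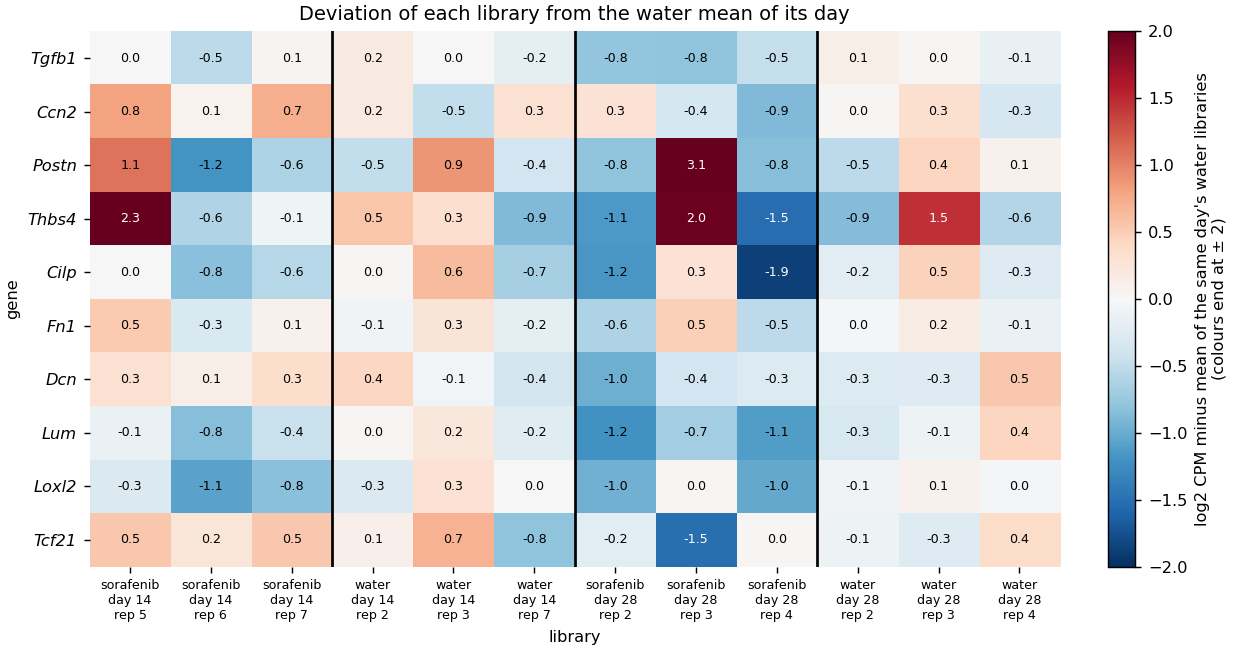
Log2 CPM of each gene in each library minus the mean over water libraries of that day, with red for higher and blue for lower, and libraries ordered sorafenib day 14, water day 14, sorafenib day 28, water day 28. Sorafenib day 28 replicates 2 and 4 are below the water mean in 9 of 10 genes each, and replicate 3 between them is below it in 5. The median deviation over all genes was -0.0171 in replicate 2 and 0.0081 in replicate 4.

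The genes whose level followed a member most closely were sought among 10710 genes of at least 5 CPM on average, over the 11 libraries other than the shallow one, as a description. Lum was followed most closely by Camk1d (Pearson r 0.98) and Lama4 (0.96), and with all 12 libraries these values were 0.64 and 0.96. For Loxl2 they were Fbn1, the fibrillin 1 gene (0.96, and 0.95 over 12), and Sqle (0.95, and 0.50 over 12). For Tgfb1 they were Rgs5 (0.97, and 0.96 over 12) and S100a10 (0.94, and 0.90 over 12). For Ccn2 they were Phrf1 (0.93 in both) and the ribosomal precursor Rn45s (0.89, and 0.81 over 12). For Cilp they were Fbxl7 (0.95, and 0.79 over 12) and Unc5c (0.93, and 0.75), and for Postn Cdkn2c (0.94, and 0.78) and Kif11 (0.91, and 0.51). For Dcn they were Gpnmb (0.96, and 0.64 over 12) and Pla2g2a (0.96, and 0.80), and for Tcf21 Gstp1 (0.94, and 0.87) and Rnh1 (0.92, and 0.67). For Fn1 they were Capg (0.89, and 0.82 over 12) and S100a10 (0.88, and 0.78), and for Thbs4 Ccp110 (0.84, and 0.89) and Vamp5 (0.83, and 0.70). The libraries share their treatment groups and days, so they are not independent points.

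Related genes were followed in lists, tested over all genes in the average of both days, where 2.41% of all genes were lower and 2% higher. Of 21 other fibroblast markers, 2 fell and 0 rose. Cd248 (endosialin) averaged 9.24 and 9.23 CPM with sorafenib at days 14 and 28, against 13.1 and 20.1 CPM with water (log2 fold change -0.87 ± 0.19, adjusted p = 0.0264). Smoc2, a secreted calcium-binding matrix protein, averaged 10.4 and 7.21 CPM with sorafenib, against 13.2 and 15.7 CPM with water (-0.66 ± 0.16, adjusted p = 0.0382). The median of the list was -0.09, against -0.0065 over all genes. Of 14 genes for collagen crosslinking and processing, which did not count Loxl2, 2 fell and 0 rose. Serpinh1, the collagen chaperone HSP47, averaged 110 ± 7.75 and 107 ± 21.03 CPM with sorafenib at days 14 and 28, against 201 ± 44.0 and 199.6 ± 33.8 CPM with water (SD over 3 libraries). At both days its 3 sorafenib libraries lay below all water libraries (3.36% of all genes). It fell by 0.90 ± 0.14 on the log2 scale (adjusted p = 0.00979), and its call held whichever single library was left out. P4ha1, a collagen prolyl hydroxylase subunit, fell to 38.6 and 25.8 CPM with sorafenib, against 52.5 and 38.3 CPM with water (-0.48 ± 0.13, adjusted p = 0.0488). Leaving out single libraries ended the call of Cd248 in 4 of 12 fits, of Smoc2 in 9 and of P4ha1 in 11. The highest adjusted p came without sorafenib day 28 replicate 2 for Cd248 (0.0939) and Smoc2 (0.124), and without water day 14 replicate 2 for P4ha1 (0.116).

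Within the TGF-beta apparatus of 20 genes (ligands, latency proteins, receptors and SMADs), 1 rose and 0 fell. It was Lrrc32 (GARP, a membrane anchor of latent TGF-beta), at 29.9 and 53.9 CPM with sorafenib at days 14 and 28, against 18.2 and 41.0 CPM with water (log2 fold change 0.56 ± 0.11, adjusted p = 0.0185). Leaving out sorafenib day 28 replicate 2 or water day 14 replicate 3 ended its call (adjusted p of 0.0659 and 0.0524). The median of those 20 was -0.09. Of 11 TGF-beta response genes 0 passed. The 2 of smallest p there were the inhibitory SMAD gene Smad6 (0.53 ± 0.18, adjusted p = 0.0964) and the SMAD corepressor gene Ski (-0.26 ± 0.09, adjusted p = 0.107). Among 13 tested matricellular genes 0 passed, with Sparc at -0.37 ± 0.13 (adjusted p = 0.109) and Ccn1 at -0.43 ± 0.18 (adjusted p = 0.153) first by p. Of 9 YAP and TEAD target genes 0 passed, with Ccn1 and Ajuba (-0.26 ± 0.13) first by p.

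No gene of the remaining matrix lists passed with all libraries. Without the shallow sorafenib day 28 replicate 3, 707 of all genes tested passed in either direction. With all libraries 801 did, 4.41% of 18174. The 707 held 1 of 11 fibronectin and periostin partners, 2 of 20 genes of the TGF-beta apparatus, 3 of 21 other fibroblast markers and 1 of 14 crosslinking genes. These counts are not split by direction, and their exact background share is not given. Of 14 activated fibroblast genes the first by p were Sfrp2, a secreted Frizzled-related protein (1.53 ± 0.49, adjusted p = 0.0829), and the homeobox gene Meox1 (-1.12 ± 0.47, adjusted p = 0.167). Of 9 tested small leucine-rich proteoglycans other than Dcn and Lum the first were Podn (0.58 ± 0.18, adjusted p = 0.0779), whose exons overlap Slc1a7 so that its reads are uncertain, and Ogn, osteoglycin (-0.41 ± 0.21, adjusted p = 0.248). Of 11 receptors and partners of fibronectin and periostin the first were the integrin genes Itgb1 (-0.31 ± 0.11, adjusted p = 0.114) and Itgav (-0.31 ± 0.12, adjusted p = 0.127). The 7 tested fibrillar collagen genes had a median of -0.35, with Col5a3 (-0.81 ± 0.22, adjusted p = 0.0538) and Col5a1 (-0.37 ± 0.19, adjusted p = 0.251) first by p.

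**Figure D5:**
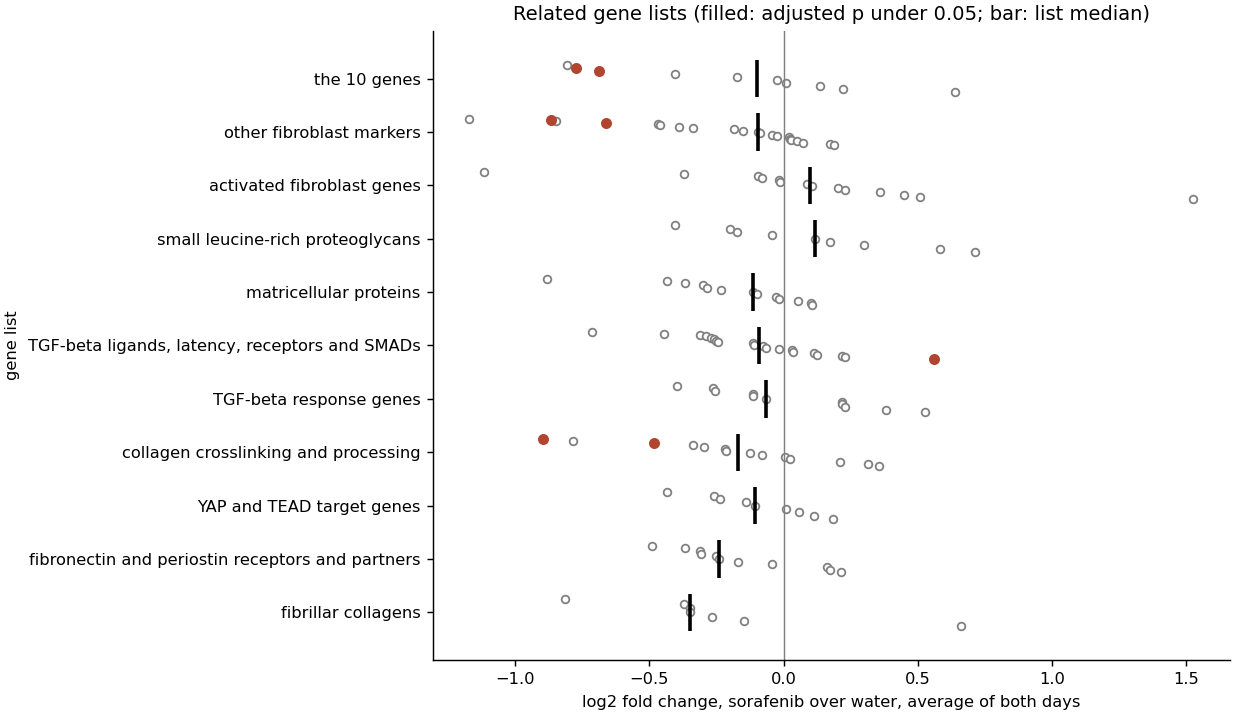
Log2 fold change of each tested gene, sorafenib over water averaged over both days, for the 10 genes and 10 related lists, with filled points for adjusted p under 0.05 and a bar at each list's median. Filled points lie below 0 for 2 of the 10 genes, 2 other fibroblast markers and 2 crosslinking genes, and above 0 for 1 gene of the TGF-beta apparatus, against 2.41% of all genes lower and 2% higher.

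Markers of other cells moved beside these genes, and their part in the results was not tested. Of 10 macrophage markers 3 fell and 0 rose: the surface receptor gene Adgre1 (log2 fold change -1.31 ± 0.29, adjusted p = 0.029) and the complement genes C1qb (-0.98 ± 0.26, adjusted p = 0.049) and C1qa (-1.23 ± 0.33, adjusted p = 0.0492). Each of the 3 calls was lost in 7 to 10 of 12 fits with 1 library left out, with adjusted p up to 0.115 for Adgre1, 0.152 for C1qb and 0.16 for C1qa, all 3 without sorafenib day 28 replicate 2. The summed macrophage level was 106 to 255 CPM with sorafenib and 196 to 381 CPM with water at day 14, and 124 to 373 CPM with sorafenib and 268 to 424 CPM with water at day 28. In the shallow library, 1 of those 10 markers was at 0. Of 10 smooth muscle and pericyte markers 1 fell, the pericyte channel gene Kcnj8 (-0.63 ± 0.12, adjusted p = 0.0185). Its call was lost without sorafenib day 28 replicate 2 (0.0671) or water day 14 replicate 3 (0.0549). Of 7 atrial markers 3 had a log2 fold change below 0 (50.8% of all genes), and the median was 0.09. Among them Sln (sarcolipin) alone passed, as lower. Its counts were 0 in each of the 3 sorafenib hearts at day 28, and the fold from the fit therefore gives no size. The Sln call was lost without sorafenib day 28 replicate 2 (adjusted p = 0.0856), sorafenib day 14 replicate 6 (0.0525) or water day 14 replicate 3 (0.0524). Of 9 endothelial, 10 cardiomyocyte, 8 mesothelial and epicardial, 7 tendon, cartilage and valve, 6 Schwann and 3 adipocyte markers tested, 0 passed. The pair of smallest p in each list was Tie1 (log2 fold change -0.31) and Vwf (0.25) for endothelium, Actc1 (-0.76) and Mb (-0.24) for cardiomyocytes, and Krt19 (-1.28) and Wt1 (-0.21) for mesothelium. For tendon, cartilage and valve it was Scx (-0.90, adjusted p = 0.0533) and Mkx (-0.75), for Schwann cells Cdh19 (0.92, adjusted p = 0.0542) and Mbp (-0.53), and for adipocytes Lep (-1.37) and Cfd (-0.45). Exons of Actc1, Krt19 and Mbp overlap other genes, so their reads are uncertain. Without the shallow library 3 of 10 macrophage, 2 of 10 smooth muscle and pericyte, 1 of 7 atrial and 1 of 6 Schwann markers passed in either direction. Of all genes tested 707 did, against 801 (4.41%) with all libraries. The mesothelial average hides unlike days: the summed level was 25.6 to 55.2 CPM with sorafenib and 43.3 to 85.3 CPM with water at day 14, and 26.4 to 51.0 CPM with sorafenib and 15.9 to 34.5 CPM with water at day 28. The median log2 fold change was -1.61 over the 7 mesothelial markers tested at day 14 and 1.80 over the 3 tested at day 28, and the difference between the days did not pass for any of the 8.

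In water-treated hearts alone, day 28 was compared with day 14, as the background of time against which the sorafenib groups are read. Time on gavage, age and the count table of each day cannot be told apart here, and the water libraries are those used against sorafenib. Of the 10 genes 2 were higher at day 28 and 0 lower, against 5.8% and 2.7% of all genes (8.51% either way). The unadjusted p was under 0.05 for 4 of them (24.5% of all genes), and the log2 fold change was below 0 for 2 (53.5%). Tgfb1 was at 28.8, 26.8 and 24.0 CPM at day 28, against 16.8, 14.7 and 13.1 CPM at day 14, a rise to 1.78 times the level (log2 fold change 0.83 ± 0.18, adjusted p = 0.013). Ccn2 was at 100.4, 124 and 78.5 CPM at day 28, against 52.1, 32.6 and 56.5 CPM at day 14, or 2.15 times the level (1.10 ± 0.29, adjusted p = 0.0322). In CPM neither gene's groups overlapped, nor did those of Fn1 and Tcf21, which were likewise higher at day 28. So 4 of the 10 were higher without overlap, against 17.7% of all genes. In TPM, which carries no TMM factor, all 4 overlapped. Tgfb1, for one, had 27.3 to 37.2 TPM at day 14 and 31.9 to 50.3 TPM at day 28. Their separation thus depends on the scaling. Fn1 (0.59 ± 0.26, adjusted p = 0.185) and Tcf21 (0.97 ± 0.34, adjusted p = 0.0939) did not pass. Lum (-0.05 ± 0.22) and Loxl2 (0.04 ± 0.25) were near 0 in this TMM-scaled fit. In TPM Lum was lower at day 28 without overlap, at 72.1 to 92.2 TPM against 95.8 to 140 TPM at day 14. Loxl2 averaged 37.7 TPM at day 28 and 50.3 TPM at day 14, with overlapping ranges. DESeq2 called the same 2 members, Tgfb1 and Ccn2, with 12.8% of all genes.
The call of Tgfb1 was lost without water day 14 replicate 3 (adjusted p = 0.0624) or replicate 7 (0.0549). That of Ccn2 was lost without water day 14 replicate 2 (0.0874) or 3 (0.155) and without water day 28 replicate 2 (0.0568) or 3 (0.123).

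Among the related lists in this comparison of days, where 5.8% of all genes were higher and 2.7% lower, counts were uneven. These counts and medians come from the TMM-scaled fit and were not looked at in TPM. The TMM factors of the water libraries were 1.004 to 1.061 at day 14 and 0.80 to 0.98 at day 28. Of 21 other fibroblast markers 6 were higher and 0 lower, with a median of 0.62 against -0.04 over all genes. Of 11 TGF-beta response genes 4 were higher, of 13 matricellular genes 4, and of 9 YAP and TEAD target genes 3, and 0 were lower in each. Of 11 receptors and partners of fibronectin and periostin 2 were higher and 0 lower, of 9 small leucine-rich proteoglycans 1 and 0, and of 20 genes of the TGF-beta apparatus 2 and 1. The 14 activated fibroblast genes (median 0.38), the 14 crosslinking and processing genes (median -0.14) and the 7 fibrillar collagen genes (median 0.22) held 0 passing genes. Ccn1, a matricellular protein and YAP target, was at 102 ± 2.61 CPM at day 28, against 24.3 ± 10.1 CPM at day 14 (SD over 3 libraries). Of the markers of other cells, 3 of 10 for smooth muscle and pericytes were higher at day 28 (median 0.45), 2 of 10 for cardiomyocytes (median 0.40), and 1 each of 7 for tendon, cartilage and valve, 6 for Schwann cells and 3 for adipocytes, with 0 lower in each. Of 9 endothelial, 10 macrophage and 7 atrial markers 0 passed. The mesothelial and epicardial markers had 4 of 8 lower at day 28 and 0 higher, and a summed level of 15.9 to 34.5 CPM at day 28, against 43.3 to 85.3 CPM at day 14. The part of these markers in the difference between the days was not tested.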

How the data were processed

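Heart RNA was measured in 12 libraries by paired-end sequencing after removal of ribosomal RNA, per the labels' protocols and the series' design text. Raw counts per gene were deposited, made by the authors with featureCounts 2.0.1 in paired mode without a strand setting on the RefSeq annotation of mRatBN7.2, per the file headers. STAR is named without a version in the submitters' processing notes. The kit marks strand, per the labels, but the counts do not use it, so antisense reads cannot be told apart. Exons of none of the 10 genes overlap another gene. Counts cover all exons, untranslated parts included. In the table of day 14, 2 columns match no sample and were not used. The members and lists were chosen with earlier results of these data known.

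Counts were tested with edgeR 4.0.16 (filterByExpr, TMM, robust quasi-likelihood, R 4.3.3), within each day, and in 1 fit of the 4 groups for the average, the difference and the comparison of days in water. Adjusted p is Benjamini-Hochberg over all genes tested. SE was taken as the size of the log2 fold change over the square root of F. The 95% intervals of log2 fold changes multiply this SE by the normal quantile, and are narrower than intervals matched to the test. CPM is TMM-normalized over 12 libraries, and TPM uses the tables' exon lengths. Binomial intervals on counts are at 95%. No replicate pair agreed within sampling noise (smallest chi-square per gene 7.50). Of each list, up to 4 passing genes of smallest p in the average are named, or the 2 of smallest p, and Ccn1 in the comparison of days was chosen after its values were seen. The alternatives tried were RLE factors, DESeq2 1.42.0, no filter, 1 CPM in 3 libraries, no robust dispersion, removal of the gene length trend, a replicate block, and each library left out. Code was tested on simulated data. No protein sequence was used.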

Additional observations from a re-analysis of the deposited data

How the results depend on the processing

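Counts of genes past the threshold depended on the tool and on single libraries. With DESeq2 the counts over all genes were 438 at day 14, 279 at day 28, 1836 in the average, 9 for the difference and 2332 between days in water (edgeR: 0, 0, 801, 0 and 1546). Without a filter they were 87 at day 14 and 82 at day 28, a fit of all 4 groups gave 4 and 53, and removal of the length trend gave 5 at day 28. Leaving out 1 library gave 0 to 27 genes at day 14, 0 to 3 at day 28, 35 to 1562 in the average, 0 to 1 for the difference and 558 to 1812 in water. Of the 10 genes it called 0 to 0 at each day and for the difference, and 0 to 2 in the average and in water. At day 28, 1 of the 10 (Lum) passed with DESeq2 and 1 without a filter. In the average 1 of the 10 (Lum) passed with RLE factors, with the filter of 1 CPM and without robust dispersion. In water 1 passed without a filter and 1 without the length trend. Lum passed in 15 of 19 alternatives and Loxl2 in 5 of 19.
Replicate numbers recur at day 28, and same-numbered libraries deviated together with r of 0.12, 0.0024 and 0.16. For libraries of different numbers r was -0.16 to 0.05. These values do not settle whether the numbers mark pairs, and the main fits did not take them as pairs. With the replicate block 108 genes passed at day 28, 38 in the average and 1024 in water, with 0, 0 and 1 of the 10. None of the 10 list genes that passed in the average did so with the block, where Serpinh1 was at -1.04 (adjusted p = 0.0525) and Kcnj8 at -0.39 (adjusted p = 0.318). Over both days the block also joined libraries of different days that share a number. Sorafenib day 14 replicates 5 and 6 share theirs with no other library, so the day 14 effect there rests on sorafenib replicate 7. Calls lost with the block therefore do not show whether the numbers mark pairs.
Signs reversed for values near 0 or resting on 1 library; the cause was not tested. Thbs4 at day 28 was 0.22 with DESeq2. In the average Fn1 was 0.0113 with DESeq2, 0.0011 with RLE factors, 0.0254 with the 1 CPM filter and 0.0194 with the block, where Dcn was 0.0849. With 1 library left out, the range was as follows. At day 14 Fn1 ran from -0.11 to 0.32, Postn from -1.04 to 0.54, Tgfb1 from -0.25 to 0.0334 and Thbs4 from -0.50 to 1.54. At day 28 Ccn2 ran from -0.63 to 0.0634, Fn1 from -0.56 to 0.0619, Postn from -0.86 to 2.06 and Thbs4 from -1.80 to 0.88. In the average Ccn2 ran from -0.0691 to 0.27, Fn1 from -0.20 to 0.0727, Postn from -0.43 to 0.98, Tcf21 from -0.14 to 0.24 and Thbs4 from -0.51 to 0.85. For the difference Loxl2 ran from -0.28 to 0.33 and Postn from -0.85 to 2.38. In water Cilp ran from -0.16 to 0.49, Loxl2 from -0.10 to 0.18, Lum from -0.30 to 0.10 and Postn from -0.74 to 0.0760.
The depth of sorafenib day 28 replicate 3 limits Tcf21, Thbs4, Tgfb1 and Cilp, which had 5 to 22 counts there.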

Other observations

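The ratio of Lum to Dcn within a library does not depend on scaling between libraries. It was looked at after the values of both genes were seen, and is given as values with no test. Per length, Lum stood at 0.174, 0.12 and 0.136 of the level of Dcn in the sorafenib libraries of day 14, against 0.179, 0.286 and 0.256 in the water libraries. At day 28 the ratio was 0.136, 0.128 and 0.0899 with sorafenib, against 0.156, 0.18 and 0.149 with water. At both days all sorafenib libraries, the shallow one included, lay below all water libraries, by a narrow gap at day 14. The ratio of Loxl2 to Dcn overlapped between the groups at both days, at 0.0431 to 0.0659 with sorafenib and 0.0604 to 0.128 with water at day 14, and at 0.0442 to 0.098 with sorafenib and 0.0503 to 0.0949 with water at day 28. A ratio shows unequal change of the 2 genes and does not say which of them changed.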
